A study of Mus musculus with 12 samples.

Results

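The effect of total body irradiation (TBI) on the transcriptome of mouse bone marrow was examined in animals that all received DEIX, the code under which the study lists its treatment and whose series title names deinoxanthin, a carotenoid of Deinococcus bacteria. The comparison set 3 libraries of B6 mice given a single dose of 5 Gy γ-rays at 0.66 Gy/min and DEIX (TBI+DEIX) against 3 libraries of mice given DEIX without irradiation (DEIX), that is 6 of the 12 libraries of the series. Both groups received 25 mg/kg DEIX once a day for 14 days, with the oral route stated for TBI+DEIX, and marrow was taken on day 14 after irradiation. The other 6 libraries were from a non-irradiated control group and from mice irradiated with 5 Gy and then gavaged with 100 µL olive oil (TBI), and TBI against control was set beside the comparison as irradiation without DEIX. The design text gives the oil for the TBI group only, so in TBI against control, and in each difference of effects built on it, irradiation and oil gavage cannot be told apart. Whole marrow was sequenced, and neither age nor sex is given in the labels used here. No label says that each library was a separate animal, so the p-values measure only the spread between these samples, which may be technical. All 21853 rows of the deposited table matched protein-coding genes of GENCODE vM21, and tests covered the 10994 genes that reached 1 FPKM (fragments per kilobase of transcript, scaled to library size) in 3 or more of the 12 libraries.

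Bone marrow holds the stem and progenitor cells of all blood lineages together with the stromal cells and macrophages of their niche. Ionizing radiation breaks DNA and activates p53, and dividing progenitors and lymphocytes are among the most radiosensitive cells of the body. Resident macrophages sit at the centre of erythroblastic islands, where they hold developing red cells, engulf their expelled nuclei and recycle their iron, while circulating monocytes and dendritic cells are renewed continuously from marrow progenitors. In whole marrow, fewer cells of a type and less RNA per cell cannot be told apart.

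Of the 6 libraries, 1 stood apart. The leukocyte gene Ptprc lay between 207 and 302 FPKM in all 6, and the liver gene Alb was listed at 0 in all 6. The first principal component of the 6 libraries carried 53.2% of the variance and placed TBI+DEIX replicate 1 at -55.0, against 6.18 to 14.5 for the other 5. The SD between replicates of log2(FPKM + 1), pooled over genes as a root mean square, was 0.42 in TBI+DEIX (0.20 without replicate 1), 0.24 in DEIX, 0.23 in TBI and 0.14 in control. Total counts are not in the table, but the FPKM that 1 read was worth, relative to control replicate 1, was 2.14, 1.51 and 1.89 in TBI+DEIX replicates 1, 2 and 3 and 1.67, 1.11 and 1.27 in DEIX replicates 1, 2 and 3, so that the ranges of the groups overlapped, with TBI+DEIX replicates 1 and 3 the shallowest of the 6. The value for TBI+DEIX replicate 1 was the least certain, since 23 low genes supported it and 22 the next candidate. The neutrophil granule genes S100a8, S100a9 and Ngp were listed at 0 in TBI+DEIX replicate 2, and Ngp in DEIX replicate 3, where the other libraries of these groups held the abundant transcripts of mature neutrophils. They were read as failed estimates and given no group mean. All 3 stayed in the fit and in the neutrophil lists, whose counts and medians include them. A fit without S100a8, S100a9 and Ngp called 282 genes, against 283 with them.

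In DEIX-treated mice, the genes higher after irradiation included markers of marrow macrophages, and the lower ones included markers of monocytes, dendritic cells, progenitors, megakaryocytes and mature B cells. The limma fit called 283 genes at an adjusted p below 0.05 (2.57% of those tested), of which 89 were higher in TBI+DEIX (0.81%) and 194 lower (1.76%). The median absolute log2 difference of the called genes was 0.81, and the median difference of all tested genes was 0.02. The TBI+DEIX and DEIX libraries did not overlap for 1944 genes (17.7%), 959 of them higher in TBI+DEIX (8.72%) and 985 lower (8.96%). At an unadjusted p below 0.05 the fit held 1780 genes (16.2%). On a TPM scale 29 genes were called higher and 96 lower, after quantile normalization 88 and 143, and with array weights, whose estimate did not converge, 653 and 569. The TPM scale divides by each library's summed FPKM, with S100a8, S100a9 and Ngp included. These 3 genes held 13.4%, 0% and 26.4% of that sum in TBI+DEIX replicates 1, 2 and 3. In DEIX replicates 1, 2 and 3 they held 21.2%, 16.2% and 17.2%. Their part in the calls lost on that scale was not tested. All log2 differences below are on the log2(FPKM + 1) scale, which understates the change of genes near 0.

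The counts depended on which libraries entered. A fit on the 6 libraries alone called 0 genes, with a smallest adjusted p of 0.0505, although 1035 (9.41%) had an unadjusted p below 0.05 there and all 283 genes kept their sign and an unadjusted p below 0.05. The fit on all 12 libraries takes its estimate of the spread from all 4 groups. Without TBI+DEIX replicate 1 it called 927 genes (8.43%), 531 higher (4.83%) and 396 lower (3.6%), and 281 of the 283 were among them. Leaving out DEIX replicate 1, 2 or 3 left 138, 80 and 50 calls. Leaving out control replicate 1, 2 or 3 left 162, 120 and 156, and TBI replicate 1, 2 or 3 left 241, 166 and 199. TBI+DEIX replicates 2 and 3 were each left out with 191 and 199 calls remaining. In the 12 fits that each left out 1 library, 43 of the 283 genes were called every time, 10 higher and 33 lower, and no call changed sign.

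**Figure D1:**
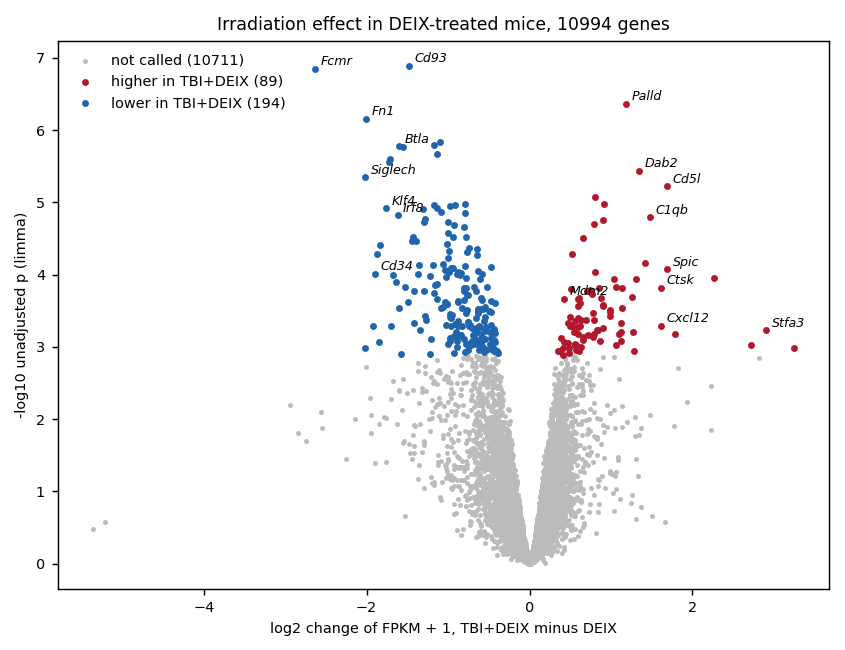
Each point is 1 of the 10994 tested genes, with the log2 difference of TBI+DEIX minus DEIX on the horizontal axis and -log10 of the unadjusted limma p on the vertical axis. Called genes are coloured, 89 to the right and 194 to the left, and the labels mark genes described in the text, with Fcmr, Siglech and Fn1 far to the left and C1qb, Cd5l and Spic to the right.

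**Figure D2:**
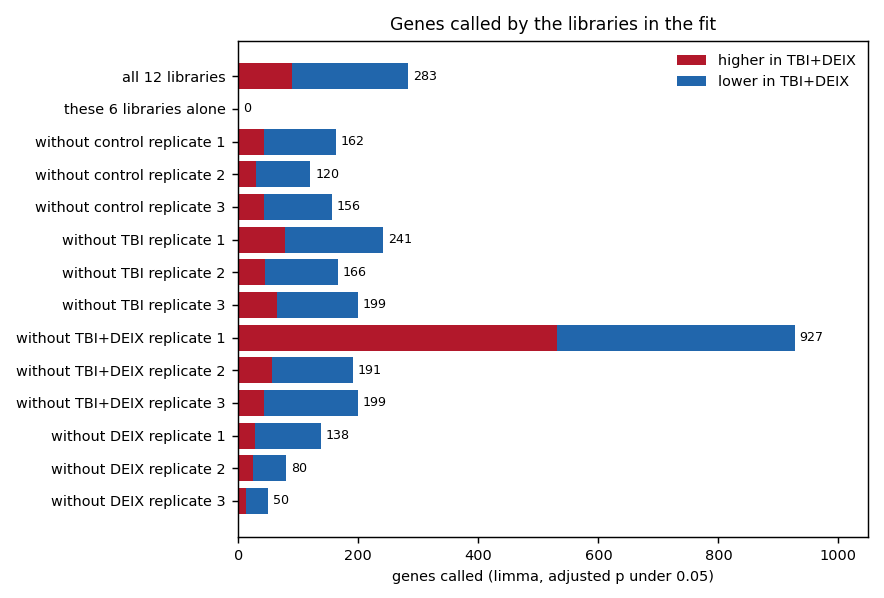
Bars give the number of genes called higher and lower in TBI+DEIX against DEIX with all 12 libraries and with each library left out in turn. The count rose from 283 to 927 without TBI+DEIX replicate 1 and fell to 50 without DEIX replicate 3.

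Among erythroblastic island macrophage genes, 7 of 18 tested rose in the irradiated animals (Spic, Cd5l, C1qa, C1qb, C1qc, Hmox1 and Mertk) and 0 fell, beside 0.81% of all tested genes that rose. The list's median log2 difference was 0.84, against 0.02 for all tested genes. Spic, the transcription factor that red pulp and island macrophages need, stood at 9.89, 8.26 and 3.90 FPKM in TBI+DEIX and at 0.776, 1.76 and 2.01 FPKM in DEIX. All 3 irradiated libraries were above all 3 DEIX libraries, with replicate 3 the lowest of the irradiated ones. The difference was 1.69 (SE 0.28, adjusted p = 0.0154), and 1.46 without TBI+DEIX replicate 1. Cd5l, which encodes a secreted scavenger receptor protein of tissue macrophages, stood at 9.68, 12.8 and 11.004 FPKM against 2.36, 3.17 and 2.75, with no overlap. Its difference was 1.69 (SE 0.21, adjusted p = 0.00468), and 1.78 without TBI+DEIX replicate 1.

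The 3 genes of C1q, the recognition molecule of the classical complement pathway, lie side by side on chromosome 4 and moved together. C1qb stood at 27.1, 45.0 and 36.5 FPKM in TBI+DEIX (mean 36.2 ± 8.94, SD, n = 3) and at 12.98, 10.6 and 12.9 FPKM in DEIX (mean 12.2 ± 1.33, SD, n = 3). Replicate 1 was the lowest irradiated library and still above every DEIX library. The log2 difference was 1.48 (SE 0.20, adjusted p = 0.00657). C1qa averaged 33.3 FPKM ± 10.8 against 11.5 ± 1.98 (SD, n = 3 each), a difference of 1.42 (adjusted p = 0.0146), and its call was lost without DEIX replicate 2 (adjusted p = 0.0562). C1qc, at 14.2, 28.1 and 21.5 FPKM against 7.81, 6.32 and 9.10, differed by 1.31 (adjusted p = 0.0162), and its call was lost without DEIX replicate 2 or 3 (largest adjusted p 0.0645). These 3 genes were also the called members of the list of complement components and regulators, where 3 of 18 rose, beside 0.81% of all tested genes. In that list 0 fell and the median was 0.31.

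Hmox1, the enzyme that opens the haem ring and releases its iron, stood at 116, 116 and 75.7 FPKM in TBI+DEIX and 52.4, 47.2 and 51.6 FPKM in DEIX. The libraries did not overlap, and the difference was 0.98 (SE 0.19, adjusted p = 0.0252). Mertk, a receptor for the engulfment of dying cells, stood at 1.77, 2.51 and 1.28 FPKM against 0.364, 0.575 and 0.790 (difference 0.84, adjusted p = 0.0337). Mrc1, the mannose receptor of tissue macrophages, was at 12.2, 9.68 and 5.01 FPKM against 2.14, 2.48 and 4.35 (difference 1.29, adjusted p = 0.0459). Hmox1 lost its call in 5 of the 12 fits that left out 1 library (largest adjusted p 0.0943), Mertk in 7 (0.107) and Mrc1 in 11 (0.158). All 3 lost it on a TPM scale (adjusted p = 0.115, 0.0848 and 0.115), and Hmox1 also after quantile normalization (0.0588). Other macrophage genes did not pass: the adhesion molecule Vcam1 was at 23.6, 32.5 and 15.7 FPKM against 16.4, 14.5 and 19.9 (adjusted p = 0.416), and the iron exporter Slc40a1 at 67.8, 161 and 141 FPKM against 83.0, 84.4 and 114 (adjusted p = 0.637). The lipid carrier Apoe lay at 52.5, 92.8 and 103 FPKM against 82.5, 203 and 96.4 (difference -0.56, adjusted p = 0.442), so the list did not move as a block. The list's summed FPKM was 419, 662 and 542 in TBI+DEIX and 354, 474 and 425 in DEIX, and no member was at 0 in any of the 6 libraries. Without TBI+DEIX replicate 1, 12 of the 18 members were called higher, against 3 without DEIX replicate 2 and 4 without DEIX replicate 3. Over all tested genes these fits called 531 (4.83%), 24 and 13 higher. A fit of only the DEIX libraries and TBI+DEIX replicates 2 and 3 called 5 of the 18 higher, and 31 of all tested genes.

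**Figure D3:**
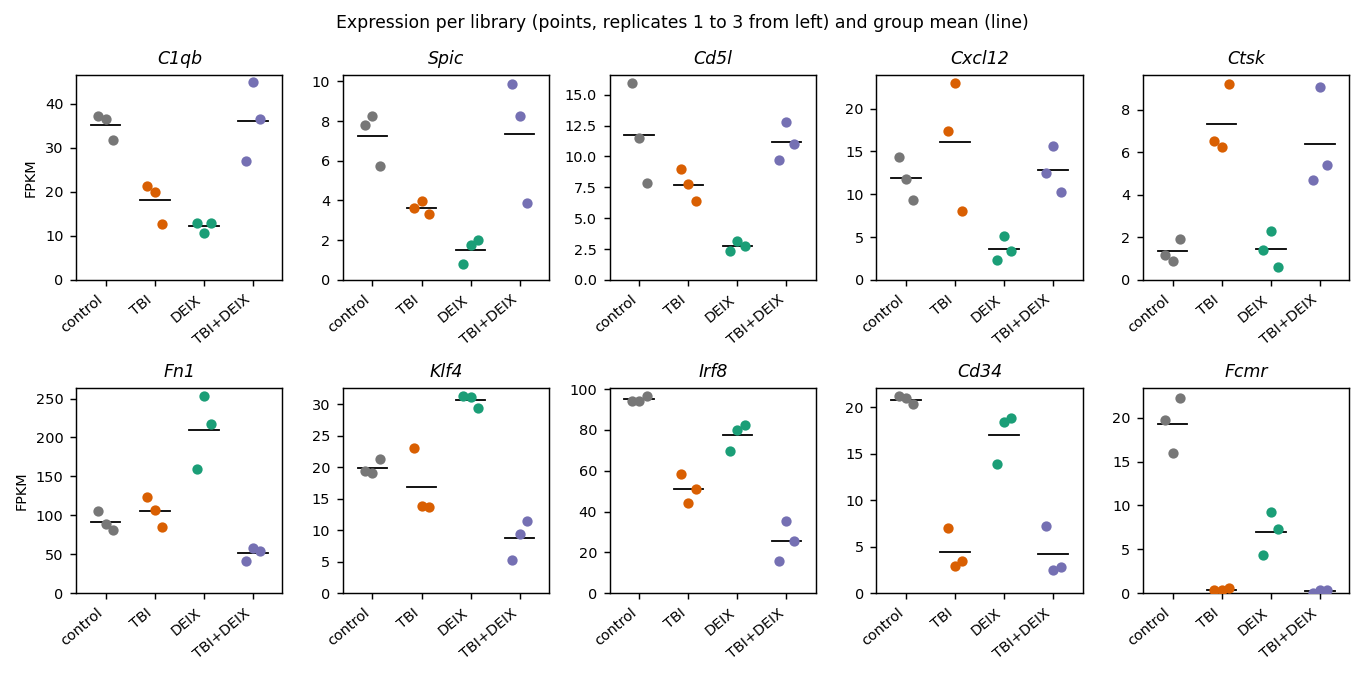
FPKM of 10 genes in each library, with 1 point per library, the 4 groups on the horizontal axis and a horizontal bar at the group mean. C1qb, Spic, Cd5l, Cxcl12 and Ctsk lie higher in all 3 TBI+DEIX libraries than in any DEIX library, and Fn1, Klf4, Irf8, Cd34 and Fcmr lie lower.

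The windows before the starts of 3 macrophage genes that rose are shown because these genes rose together, with that of a monocyte gene that fell beside them. Each holds the 250 bases before the RefSeq transcript start on the gene's own strand, in GRCm38.p6: C1qb at chr4:136886201-136886450 (minus strand), Spic at chr10:88683024-88683273 (minus strand), Cd5l at chr3:87357631-87357880 (plus strand) and Ccl9, a monocyte chemokine described below, at chr11:83578637-83578886 (minus strand). None of the windows overlapped an exon of GENCODE vM21. Capitals mark a match to TTTGAA, the cell cycle homology region, on either strand.
C1qb: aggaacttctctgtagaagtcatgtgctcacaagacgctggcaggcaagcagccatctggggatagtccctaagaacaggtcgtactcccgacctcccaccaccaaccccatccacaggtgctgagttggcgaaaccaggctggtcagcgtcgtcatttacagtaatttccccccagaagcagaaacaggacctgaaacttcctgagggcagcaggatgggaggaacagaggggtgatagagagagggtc
Spic: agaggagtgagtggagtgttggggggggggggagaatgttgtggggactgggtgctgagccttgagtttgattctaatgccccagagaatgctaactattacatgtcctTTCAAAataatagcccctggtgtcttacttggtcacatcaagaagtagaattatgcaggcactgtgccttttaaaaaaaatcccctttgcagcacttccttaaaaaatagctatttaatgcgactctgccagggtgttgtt
Cd5l: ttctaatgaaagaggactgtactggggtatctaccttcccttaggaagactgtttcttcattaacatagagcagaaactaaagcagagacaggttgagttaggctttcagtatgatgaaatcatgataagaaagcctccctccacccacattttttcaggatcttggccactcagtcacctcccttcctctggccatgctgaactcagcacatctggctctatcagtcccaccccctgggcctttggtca
Ccl9: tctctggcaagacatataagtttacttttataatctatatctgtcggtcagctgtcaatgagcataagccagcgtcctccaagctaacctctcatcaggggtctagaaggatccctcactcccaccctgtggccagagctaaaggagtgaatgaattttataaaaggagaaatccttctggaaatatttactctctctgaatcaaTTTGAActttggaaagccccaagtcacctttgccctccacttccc
The match in Spic lay 141 to 136 bases before the start on the opposite strand, and that in Ccl9 45 to 40 bases before the start on the gene's own strand. TTTGAA was present in 16.0% of 32851 RefSeq promoter windows searched in the same way on both strands. The GATA motif AGATAA (9.99% of all windows), the interferon response element (2.98%), the CCAAT box (33.8%) and the PU.1 motif GAGGAAGT (2.44%, added after the data were seen) had no match in these 4 windows. A window was available for 5 of the 7 macrophage genes that rose. Of these 5, 1 held GAGGAAGT (C1qc) and 1 held TTTGAA (Spic).

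Among classical monocyte genes, 5 of 25 tested fell in the irradiated animals (Fn1, Klf4, Ms4a6c, F13a1 and Ccl9) and 0 rose, beside 1.76% of all tested genes that fell. The list's median was -1.13 (-0.61 without TBI+DEIX replicate 1). Fn1 encodes fibronectin, an extracellular matrix protein that monocyte progenitors transcribe strongly, and stood at 40.8, 58.6 and 53.8 FPKM in TBI+DEIX and 160, 253 and 217 FPKM in DEIX. The groups were far apart, at means of 51.1 ± 9.23 and 210 ± 46.9 FPKM (SD, n = 3 each). The difference was -2.01 (SE 0.20, adjusted p = 0.00191), and -1.86 without TBI+DEIX replicate 1. Klf4, a transcription factor required for monocyte differentiation, stood at 5.35, 9.37 and 11.5 FPKM against 31.3, 31.2 and 29.4. Replicate 1 was the lowest, and every irradiated library was below every DEIX library (difference -1.76, SE 0.24, adjusted p = 0.00587, and -1.48 without TBI+DEIX replicate 1).

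F13a1, which encodes the A chain of the clot-stabilising factor XIII, was at 111, 69.8 and 90.0 FPKM against 249, 233 and 223 (difference -1.39, SE 0.21, adjusted p = 0.0093). The chemokine gene Ccl9 was at 26.5, 37.1 and 48.0 FPKM against 91.6, 94.6 and 86.8 (difference -1.31, SE 0.18, adjusted p = 0.00587). Neither overlapped, and for F13a1 it was replicate 2, not replicate 1, that was lowest. Ms4a6c, a membrane protein of monocytes, was at 30.8, 55.1 and 84.6 FPKM against 178, 157 and 148 (difference -1.60, adjusted p = 0.0249), and its call was lost in 5 of the 12 fits that left out 1 library (largest adjusted p 0.0804). Fn1, Klf4, F13a1 and Ccl9 were called in all 12. The most abundant monocyte genes did not follow: Ly6c2, the surface antigen that defines classical monocytes, was at 545, 1613 and 2218 FPKM against 1836, 1380 and 1539 (adjusted p = 0.763), and the lectin gene Lgals3 at 233, 378 and 474 FPKM against 435, 382 and 367 (adjusted p = 0.776). Both were lowest in TBI+DEIX replicate 1 and highest in TBI+DEIX replicate 3. The whole list summed to 1865, 4622 and 6090 FPKM in TBI+DEIX and 6225, 5774 and 5696 FPKM in DEIX, with no member at 0. Without TBI+DEIX replicate 1, 9 of the 25 members were called lower, beside 3.6% of all tested genes. With only the DEIX libraries and TBI+DEIX replicates 2 and 3 in the fit, 4 of the 25 were called lower, and 56 of all tested genes.

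Transcription factors of the myeloid lineages included 4 that fell among 15 tested (1.76% of all tested genes fell), with a list median of -0.07. Irf8, which directs progenitors to monocytes and dendritic cells, stood at 15.8, 35.6 and 25.8 FPKM in TBI+DEIX and 69.8, 79.8 and 82.7 FPKM in DEIX. The groups did not overlap, and the difference was -1.62 (SE 0.22, adjusted p = 0.00639). Klf4 is given above. Irf5, which drives inflammatory cytokine genes, was at 15.5, 28.9 and 28.7 FPKM against 45.7, 53.3 and 46.8 (difference -1.02, adjusted p = 0.0235), and Cebpa, required for granulocyte and monocyte progenitors, at 24.8, 13.7 and 14.7 FPKM against 31.8, 32.2 and 30.6 (difference -0.84, adjusted p = 0.0359). Irf5 lost its call without any 1 of the 3 DEIX libraries (largest adjusted p 0.0889) and Cebpa in 11 of the 12 fits (0.119) and on a TPM scale (0.244). The count for the list was 2 without DEIX replicate 1, 2 or 3. Spi1, which encodes PU.1, was at 215, 284 and 323 FPKM against 268, 204 and 215 (adjusted p = 0.551).

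Among dendritic cell genes 4 of 14 fell (1.76% of all tested genes fell) and 0 rose, with a median of -0.82 (-0.38 without TBI+DEIX replicate 1). Siglech, a receptor of plasmacytoid dendritic cells, stood at 2.43, 5.94 and 2.26 FPKM in TBI+DEIX and 13.8, 18.4 and 16.8 FPKM in DEIX. The highest irradiated library was below the lowest DEIX library, and the difference was -2.01 (SE 0.24, adjusted p = 0.00379). Flt3, the cytokine receptor on which dendritic cell progenitors depend, was at 4.39, 2.53 and 1.46 FPKM against 6.52, 11.9 and 8.34 (difference -1.42, SE 0.26, adjusted p = 0.0191). Tcf4, the transcription factor that specifies plasmacytoid dendritic cells, was at 6.22, 8.30 and 7.95 FPKM against 13.7, 13.7 and 14.0 (difference -0.81, adjusted p = 0.0186), and Klk1, a kallikrein protease, was at 0.188, 1.22 and 0.324 FPKM against 3.76, 2.81 and 3.67 (difference -1.53, adjusted p = 0.0186). Bst2, an interferon-inducible surface protein of plasmacytoid dendritic cells, was at 7.98, 29.0 and 37.2 FPKM against 33.9, 33.5 and 33.4 (adjusted p = 0.467). The list summed to 34.0, 91.5 and 78.3 FPKM in TBI+DEIX and 108, 135 and 127 FPKM in DEIX, and 1 member was at 0 in TBI+DEIX replicate 1. Its count was 2 without DEIX replicate 1, 2 without DEIX replicate 2 and 1 without DEIX replicate 3, while Siglech was called in all 12 of these fits. Klk1 lost its call without DEIX replicate 1 or 3 (largest adjusted p 0.0745), Tcf4 without any 1 DEIX library (0.0733) and Flt3 without DEIX replicate 2 or 3 (0.0705). On a TPM scale Flt3 and Tcf4 did not pass (adjusted p = 0.0637 and 0.0862).

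Of 17 tested stem and progenitor genes, 6 fell (among them Cd34, Flt3, Cd27, Meis1 and Myct1), beside 1.76% of all tested genes, and 0 rose. The median was -0.57, and 5 of the 17 had a positive value that did not pass. The list summed to 151, 171 and 347 FPKM in TBI+DEIX and 210.0, 230 and 223 FPKM in DEIX, so that TBI+DEIX replicate 3 lay above every DEIX library and replicates 1 and 2 below. Cd34, a sialomucin of progenitors and endothelium, stood at 7.27, 2.54 and 2.78 FPKM in TBI+DEIX and 13.9, 18.5 and 18.8 FPKM in DEIX. Here TBI+DEIX replicate 1 was the highest irradiated library, and the groups did not overlap (difference -1.90, SE 0.32, adjusted p = 0.0154). Cd27, a co-stimulatory receptor of multipotent progenitors and lymphocytes, was at 1.13, 1.85 and 2.05 FPKM against 3.67, 4.42 and 4.15 (difference -0.94, SE 0.14, adjusted p = 0.00879). Meis1, a homeobox factor of stem cells, averaged 0.570 FPKM ± 0.239 against 1.66 ± 0.109 (SD, n = 3 each), with a difference of -0.77 (adjusted p = 0.0115). Myct1 differed by -0.57 (adjusted p = 0.0435). Cd34 and Flt3 lost their calls without DEIX replicate 2 or 3, Meis1 without DEIX replicate 3 (largest adjusted p 0.0690, 0.0705 and 0.0605), and Myct1 in 10 of the 12 fits (0.154). On a TPM scale Flt3, Meis1 and Myct1 did not pass (adjusted p = 0.0637, 0.0585 and 0.146), nor did Meis1 and Myct1 after quantile normalization (0.0617 and 0.242). The list held 2 calls without DEIX replicate 2, 1 without DEIX replicate 3 and 10 without TBI+DEIX replicate 1. The fit without TBI+DEIX replicate 1 called 3.6% of all tested genes lower.

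Among megakaryocyte and platelet genes 6 of 20 fell (1.76% of all tested genes fell) and 0 rose, with a median of -0.65. Ppbp, which encodes a platelet chemokine, stood at 2.63, 6.10 and 4.74 FPKM in TBI+DEIX and 13.4, 14.1 and 35.9 FPKM in DEIX. DEIX replicate 3 was well above the others, and the groups did not overlap (difference -1.92, SE 0.40, adjusted p = 0.0317). Gng11, a G protein subunit of platelets, was at 1.45, 1.21 and 1.26 FPKM against 3.13, 2.88 and 2.93 (difference -0.79, SE 0.11, adjusted p = 0.00611). Gp9, a chain of the platelet receptor for von Willebrand factor, differed by -0.94 (adjusted p = 0.0152), Tubb1, the platelet tubulin, by -0.88 (0.0306), and Vwf, von Willebrand factor itself, by -0.73 (0.0317). Pf4, platelet factor 4, did not pass (difference -1.35, adjusted p = 0.113). Of the named genes, Gng11 was called in all 12 fits that left out 1 library. Ppbp lost its call in 7 of them (largest adjusted p 0.0965), Vwf in 8 (0.125), Tubb1 in 6 (0.0949), and Gp9 without DEIX replicate 2 or 3 (0.0601). On a TPM scale Gng11, Tubb1 and Vwf did not pass (adjusted p = 0.0622, 0.0556 and 0.145), nor did Tubb1 and Vwf after quantile normalization (0.0584 and 0.0906). The list held 3 calls without control replicate 2, control replicate 3, TBI replicate 2 or TBI+DEIX replicate 3, 2 without DEIX replicate 2 and 1 without DEIX replicate 3. Its members summed to 95.7, 97.8 and 89.4 FPKM in TBI+DEIX and 103, 125 and 167 FPKM in DEIX, and none was at 0.

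Mature B-cell genes fell in 4 of 26 cases (1.76% of all tested genes fell) and rose in 0, with a median of -0.80 (-0.21 without TBI+DEIX replicate 1). Fcmr, the Fc receptor for IgM, stood at 0, 0.393 and 0.363 FPKM in TBI+DEIX and 4.37, 9.23 and 7.28 FPKM in DEIX. It had the most negative value among the genes whose difference in this comparison is given here, with no overlap, at -2.63 (SE 0.23, adjusted p = 0.000773). Fcer2a, which encodes the B-cell IgE receptor CD23, averaged 0.0494 FPKM ± 0.0118 against 2.56 ± 0.952 (SD, n = 3 each; difference -1.72, adjusted p = 0.0028). The inhibitory receptor gene Cd22 differed by -1.49 (adjusted p = 0.0228) and the complement receptor gene Cr2 by -0.77 (0.0253). Btla, an inhibitory receptor of lymphocytes outside the list, was at 4.02, 4.82 and 4.17 FPKM against 12.8, 20.0 and 13.6 (difference -1.60, SE 0.18, adjusted p = 0.00235). Fcmr, Fcer2a and Btla were called in all 12 fits that left out 1 library, whereas Cd22 lost its call without DEIX replicate 2 or 3 (largest adjusted p 0.0894) and Cr2 in 4 fits (0.0773), which left 2 calls in the list without DEIX replicate 2 or 3. More abundant B-cell genes did not pass, among them Cd37, a tetraspanin (0.08, adjusted p = 0.907), and Cd74, the invariant chain of MHC class II (-0.08, adjusted p = 0.968). The list summed to 380, 1360.0 and 1320.0 FPKM in TBI+DEIX and 867, 850 and 1052 FPKM in DEIX, so that replicates 2 and 3 of TBI+DEIX lay above every DEIX library and replicate 1 below, with 2 members at 0 in replicate 1.

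Early B-lineage genes gave 0 calls among 17 (3 at an unadjusted p below 0.05, beside 16.2% of all tested genes) and split within the irradiated group. Vpreb1, part of the surrogate light chain of the pre-B receptor, stood at 0.552, 45.6 and 10.1 FPKM in TBI+DEIX and 0.984, 3.11 and 3.26 FPKM in DEIX. Igll1, the other part, was at 1.04, 42.0 and 9.15 FPKM against 1.38, 3.85 and 4.12. In both, TBI+DEIX replicate 1 was below every DEIX library and replicates 2 and 3 were above every one (adjusted p = 0.594 and 0.617). The median of the list was 0.01 and became 0.58 without TBI+DEIX replicate 1.

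Mature neutrophil genes rose in 4 of 31 cases (0.81% of all tested genes rose) and fell in 0, with a median of 0.13. Stfa3, a stefin that inhibits cysteine proteases, stood at 105, 221 and 737 FPKM in TBI+DEIX and 27.2, 70.2 and 19.4 FPKM in DEIX. Stfa2 followed at 84.0, 147 and 449 FPKM against 16.6, 64.5 and 16.0. TBI+DEIX replicate 3 was the highest for both, and no library overlapped (differences 2.91, SE 0.61, adjusted p = 0.034, and 2.72, SE 0.61, adjusted p = 0.0415). The third stefin, BC100530, differed by 3.25 and also passed. The stefin genes are near-identical neighbours whose reads the submitters' quantification could divide between them, so their separate values are uncertain. Asprv1, an aspartic protease of mature neutrophils, was at 276, 439 and 458 FPKM against 173, 182 and 124 (difference 1.27, SE 0.27, adjusted p = 0.0348). These calls depended on single libraries: Stfa3 and Asprv1 lost theirs in 9 of the 12 fits (largest adjusted p 0.130 and 0.131), Stfa2 in 10 (0.155) and BC100530 in 11 (0.162). The list had 0 calls without any 1 of the 3 control libraries, TBI replicate 2, TBI+DEIX replicate 2 or 3, or DEIX replicate 1 or 3, 1 without TBI replicate 3, 2 without TBI replicate 1 or DEIX replicate 2, and 10 without TBI+DEIX replicate 1. The last of these fits called 4.83% of all tested genes higher. The list median became negative without TBI+DEIX replicate 2 or 3. Retnlg, an abundant secreted protein of neutrophils, was at 2148, 18070 and 13839 FPKM against 8794, 8768 and 8869, so the irradiated libraries lay on both sides of the DEIX libraries (adjusted p = 0.964).

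Elane, the neutrophil elastase of primary granules, was at 516, 521 and 612 FPKM against 1418, 929 and 926, without overlap and without passing (difference -0.96, adjusted p = 0.0851). None of the 12 primary granule genes passed (3 at an unadjusted p below 0.05), nor did any of the 18 of the secondary and tertiary granules (4 unadjusted). Of all tested genes, 16.2% had an unadjusted p below 0.05.

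Stromal, bone and endothelial genes rose in 3 of 12 cases (0.81% of all tested genes rose) and fell in 0, with a median of 0.48. Cxcl12, the chemokine with which reticular stroma retains stem cells, stood at 12.5, 15.6 and 10.3 FPKM in TBI+DEIX and 2.27, 5.16 and 3.34 FPKM in DEIX. The groups did not overlap, and the difference was 1.62 (SE 0.34, adjusted p = 0.0317). Spp1, which encodes the bone matrix protein osteopontin, was at 23.5, 11.3 and 12.2 FPKM against 6.25, 5.51 and 7.22 (difference 1.12, adjusted p = 0.0317), and Sparc, osteonectin, at 1.21, 3.30 and 2.23 FPKM against 0.239, 0.600 and 0.708 (difference 1.06, adjusted p = 0.0415). The summed list was 60.0, 75.1 and 55.7 FPKM in TBI+DEIX and 34.8, 51.1 and 42.3 FPKM in DEIX, with 1 member at 0 in TBI+DEIX replicate 1. Cxcl12 and Spp1 lost their calls in 7 of the 12 fits that left out 1 library and Sparc in 11 (largest adjusted p 0.108, 0.115 and 0.117), and Spp1 did not pass on a TPM scale (0.109). The list had 0 calls without any 1 control or DEIX library, 1 without TBI replicate 2 or TBI+DEIX replicate 2, and 2 without TBI replicate 1, TBI replicate 3 or TBI+DEIX replicate 3. Without TBI+DEIX replicate 1 it had 4 higher and 2 lower, beside 4.83% and 3.6% of all tested genes.

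Ctsk, the collagen-degrading cathepsin of osteoclasts, was at 4.69, 9.09 and 5.40 FPKM in TBI+DEIX and 1.39, 2.31 and 0.609 FPKM in DEIX. It did not overlap (difference 1.62, SE 0.29, adjusted p = 0.0186), lost its call without DEIX replicate 1 or 3 (largest adjusted p 0.0705), and was the only called gene among 9 of osteoclasts, whose median was -0.04. Of all tested genes 0.81% were called higher and 1.76% lower, the shares for this count and the next. Epx, the eosinophil peroxidase, was at 7.07, 4.24 and 5.33 FPKM against 1.86, 2.10 and 1.86 (difference 1.13, adjusted p = 0.0249). It was the only called one of 11 eosinophil genes, and its call did not survive leaving out TBI+DEIX replicate 3 or any 1 DEIX library (largest adjusted p 0.0873) or a TPM scale (0.0557). Prg2, the eosinophil major basic protein, did not pass (0.39, adjusted p = 0.209). Itga1, a collagen-binding integrin and the only called one of 10 basophil and mast cell genes, was at 0.577, 1.40 and 1.72 FPKM against 4.62, 4.92 and 5.00 (difference -1.43, adjusted p = 0.00879) and was called in all 12 fits.

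Of 27 tested targets of p53, 3 rose at 14 days (Mdm2, Phlda3 and Zmat3), beside 0.81% of all tested genes, 0 fell, and the median was 0.17. None of the 3 passed on a TPM scale (adjusted p = 0.417, 0.0671 and 0.169). Mdm2, which encodes the ubiquitin ligase that degrades p53, stood at 43.1, 43.7 and 43.8 FPKM in TBI+DEIX and 32.8, 29.8 and 33.9 FPKM in DEIX. The 3 irradiated libraries, TBI+DEIX replicate 1 included, were within 1 FPKM of each other and above all DEIX libraries (difference 0.43, SE 0.08, adjusted p = 0.0216). Phlda3, an inhibitor of AKT signalling, was at 0.811, 1.43 and 1.06 FPKM against 0.398, 0.316 and 0.263 (difference 0.65, adjusted p = 0.0377), and Zmat3, an RNA-binding protein, was at 2.14, 1.75 and 1.95 FPKM against 0.900, 1.13 and 0.815 (difference 0.60, adjusted p = 0.0357). The cyclin gene Ccng1 did not overlap, at 41.0, 43.8 and 46.4 FPKM against 33.3, 30.9 and 37.2, but missed the threshold (0.36, adjusted p = 0.103), as did Cdkn1a, the p21 inhibitor of the cell cycle (0.46, adjusted p = 0.136), and Bax, the pore-forming death effector (0.07, adjusted p = 0.883). Mdm2 lost its call in 6 of the 12 fits (largest adjusted p 0.0804), and Phlda3 and Zmat3 in 9 (0.130 each). The list had 0 calls without control replicate 2, TBI+DEIX replicate 2 or 3, or any 1 DEIX library, 1 without control replicate 1 or 3 or TBI replicate 2, and 7 without TBI+DEIX replicate 1. Of all tested genes, 4.83% were called higher in the fit without TBI+DEIX replicate 1.

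Genes of DNA repair, DNA replication and mitosis gave 0 calls among 29, 35 and 38, with medians of -0.05, -0.14 and 0.01. At an unadjusted p below 0.05 they held 3, 3 and 0 genes, beside 16.2% of all tested genes. Of all tested genes 0.81% were called higher and 1.76% lower, beside which the counts of calls below stand. In the ATF4 amino acid response 1 of 17 rose: Asns, asparagine synthetase, was at 78.0, 62.3 and 68.4 FPKM against 44.0, 45.1 and 37.6 (difference 0.71, adjusted p = 0.0191, lost without DEIX replicate 2 or 3 with a largest adjusted p of 0.0801, on a TPM scale at 0.136 and after quantile normalization at 0.0519). Among 31 glutathione and antioxidant genes Hmox1 alone rose and the median was 0.06. None of 12 carotenoid and retinoid genes passed (5 at an unadjusted p below 0.05), with a median of 0.01. P2rx7, the ATP-gated channel, was the only called member of 10 NAD and ATP ectoenzyme and receptor genes (difference -0.65, adjusted p = 0.0293, lost in 6 of the 12 fits with a largest adjusted p of 0.107 and on a TPM scale at 0.327).

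Of 5 erythroid lists, 4 had negative medians in this comparison, with a wide spread between libraries. The 4 haemoglobin genes had a median difference of -2.64 and 0 calls (4 at an unadjusted p below 0.05, beside 16.2% of all tested genes). Hba-a1, an adult alpha globin, stood at 75.4, 777 and 203 FPKM in TBI+DEIX and 867, 3898 and 708 FPKM in DEIX, with replicate 2 the highest in both groups and replicate 2 of TBI+DEIX inside the DEIX range (difference -2.54, SE 0.86, adjusted p = 0.166). Slc4a1, the anion exchanger of the red cell membrane, was at 12.5, 50.5 and 12.8 FPKM against 53.7, 246 and 60.5. It did not overlap and did not pass (difference -2.14, SE 0.69, adjusted p = 0.147). Of 21 red cell membrane genes 0 passed and 8 had an unadjusted p below 0.05, with a median of -0.88. Haem synthesis (12 genes) and erythroid transcription factors and enzymes (25 genes) had medians of -0.56 and -0.53 and 0 calls (2 and 4 unadjusted). Erythroid iron uptake and regulation (11 genes) had a median of 0.03 and 0 calls (0 unadjusted), and a median of 0.12 and 1 call, higher, with TBI+DEIX replicate 1 left out. With that library left out, 4.83% of all tested genes were called higher.

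Calls among interferon-response genes appeared when TBI+DEIX replicate 1 was left out of the fit over all 4 groups. Of 37 genes of the type I interferon response 0 passed (1 at an unadjusted p below 0.05, beside 16.2% of all tested genes). Their median was 0.13, which turned negative without TBI+DEIX replicate 2, without TBI+DEIX replicate 3 or without DEIX replicate 2. Their summed FPKM was 732, 2216 and 3282 in TBI+DEIX and 1865, 1106 and 1689 in DEIX, so replicate 1 lay below all DEIX libraries and replicates 2 and 3 above. Without TBI+DEIX replicate 1 the median was 0.82 and 17 of 37 were called higher, in a fit that called 4.83% of all tested genes higher and 3.6% lower. A fit of only the DEIX libraries and TBI+DEIX replicates 2 and 3 called 0 of the 37, and 87 of all tested genes. Ifi27l2a, an interferon-induced mitochondrial protein, was at 2.62, 158 and 302 FPKM against 74.5, 55.1 and 93.6 (difference -0.40, adjusted p = 0.919, against 1.57, adjusted p = 0.0302, without TBI+DEIX replicate 1). The 16 interferon-inducible GTPases had 0 calls (2 unadjusted) and a median of 0.31 with all libraries, and 10 higher and 1 lower and a median of 0.69 without TBI+DEIX replicate 1. They had 0 calls in the fit of only the DEIX libraries and TBI+DEIX replicates 2 and 3. Igtp, 1 of these GTPases, was at 9.44, 19.6 and 25.4 FPKM against 11.7, 9.46 and 12.4 (difference 0.56, adjusted p = 0.335, against 0.94, adjusted p = 0.00521, without that library). Without TBI+DEIX replicate 3, 1 GTPase was called lower. MHC class I genes (18, median 0.01) and MHC class II genes (11, median -0.66) had 0 calls (1 and 5 unadjusted). When TBI+DEIX replicate 1 was left out their medians were 0.33 and -0.19, with 2 class I genes called higher and 2 class II genes lower. Neither list had a call in the fit of only the DEIX libraries and TBI+DEIX replicates 2 and 3.

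**Figure D4:**
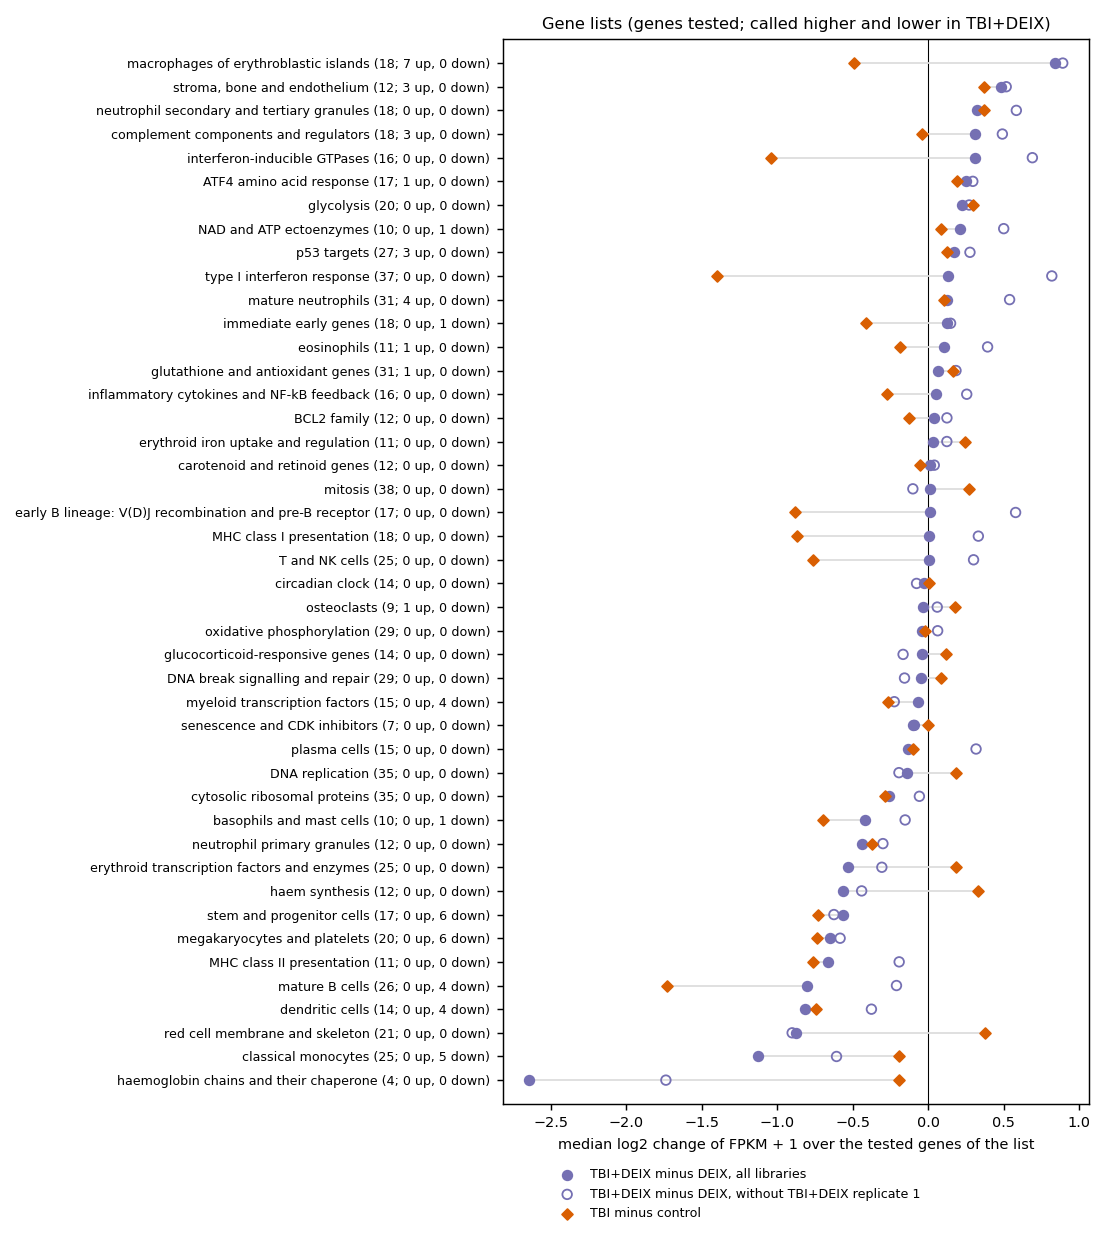
Median log2 difference of each gene list for TBI+DEIX minus DEIX with all libraries, the same without TBI+DEIX replicate 1, and TBI minus control. Island macrophages lie at 0.84 with DEIX and at -0.49 without it, and the interferon lists move to the right when TBI+DEIX replicate 1 is left out.

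Some of the genes with the largest values belonged to no list. Pdzk1ip1, a small membrane protein, was at 0.528, 2.16 and 1.01 FPKM in TBI+DEIX and 6.16, 11.9 and 6.01 FPKM in DEIX (difference -2.02, adjusted p = 0.0439), and its call was lost in 9 of the 12 fits (largest adjusted p 0.167), among them the fit without TBI+DEIX replicate 1 (0.0521), and after quantile normalization (0.0535). Gria3, a glutamate receptor subunit, was at 2.50, 2.06 and 2.40 FPKM against 11.9, 9.39 and 11.4, with little spread in either group (difference -1.84, SE 0.28, adjusted p = 0.01, lost without DEIX replicate 3 at 0.0539). Serpinf1, the secreted anti-angiogenic factor PEDF, was at 1.09, 1.28 and 1.32 FPKM against 4.59, 9.08 and 5.85 (difference -1.71, SE 0.20, adjusted p = 0.00277, called in all 12 fits). Bex6 (-1.87, adjusted p = 0.0116), the lipid transporter gene Abca9 (-1.64, 0.0174), Tifab, an inhibitor of NF-kB signalling (-1.84, 0.0396), and Ifi209, of the interferon-induced HIN-200 family (-1.70, 0.0317), also fell. Bex6 lost its call without DEIX replicate 3 (0.0553) and Abca9 without DEIX replicate 2 or 3 (largest 0.0745), whereas Tifab and Ifi209 lost theirs in 8 of the 12 fits (largest 0.130 and 0.123). Clec4n, the fungal receptor dectin-2, was at 7.05, 6.69 and 6.31 FPKM against 2.33, 4.26 and 1.63 (difference 1.10, adjusted p = 0.0359, lost in 7 of the 12 fits with a largest adjusted p of 0.126 and on a TPM scale at 0.0805), and Gramd2 rose by 1.04 (adjusted p = 0.0162, lost without DEIX replicate 3 at 0.0539).

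The irradiation effect in DEIX-treated mice was then set beside that in mice without DEIX, TBI against control, which shares no library with it. There, 439 genes were called (3.99%), 98 higher (0.891%) and 341 lower (3.1%), and 24 higher and 229 lower on a TPM scale. Over the 10994 tested genes the log2 differences of the 2 comparisons had a Pearson r of 0.42 and a Spearman rho of 0.48 (r = 0.22 without TBI+DEIX replicate 1), a description across genes, which are not independent replicates. Of the 89 genes higher with DEIX, 75 had a positive value without it, and of the 194 lower, 179 had a negative one, beside 7533 of all 10994 genes (68.5%) with the same sign in both (58.1% without TBI+DEIX replicate 1). The 92 genes called in both, 89 of them with the same sign, were 32.5% of the calls with DEIX and 21.0% of those without. With TBI+DEIX replicate 1 left out, 342 genes were called in both, 283 of them with the same sign. Cd34 differed by -2.07 in TBI against control (adjusted p = 0.00517, means 4.46 and 20.8 FPKM) and by -1.90 with DEIX. Ctsk differed by 1.84 (adjusted p = 0.00554) and by 1.62 with DEIX, and Tubb1 by -1.35 (adjusted p = 0.00203) and by -0.88 with DEIX. Fcmr averaged 0.417 FPKM in TBI and 19.3 FPKM in control, a difference of -3.84 (adjusted p = 2.91e-05), against -2.63 with DEIX.

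The list medians of the 2 comparisons lay near each other for some lists and apart for others. Without and with DEIX they were -0.73 and -0.57 for stem and progenitor cells, -0.74 and -0.65 for megakaryocytes, -0.74 and -0.82 for dendritic cells (-0.38 with DEIX when TBI+DEIX replicate 1 was left out), 0.37 and 0.48 for stroma, and 0.13 and 0.17 for p53 targets. In TBI against control 3.1% of all tested genes were called lower, beside which the counts below stand. Mature B-cell genes had a median of -1.73 without DEIX, with 12 of 26 called lower, and -0.80 with DEIX. Genes of the type I interferon response had medians of -1.40 (5 of 37 called lower) and 0.13, and interferon-inducible GTPases -1.04 (8 of 16 lower) and 0.31. MHC class I genes had medians of -0.87 (7 of 18 lower) and 0.01, T and NK cell genes -0.76 (6 of 25 lower) and 0.00. The medians with DEIX, leaving out TBI+DEIX replicate 1, were -0.21 for mature B cells, 0.82 for the type I interferon response, 0.69 for the GTPases, 0.33 for MHC class I and 0.30 for T and NK cells. The classical monocyte median was -0.20 without DEIX and -1.13 with it (-0.61 without that library), and that of island macrophages -0.49 and 0.84 (0.89). Haemoglobin genes had medians of -0.19 without DEIX and -2.64 with it (0 of 4 at an unadjusted p below 0.05 for the difference of the effects), red cell membrane genes 0.38 and -0.88 (7 of 21), haem synthesis genes 0.33 and -0.56 (2 of 12) and early B-lineage genes -0.88 and 0.01 (3 of 17), and none of their members was called for that difference. Of all tested genes 7.5% had an unadjusted p below 0.05 for it. With TBI+DEIX replicate 1 left out, the medians with DEIX were -1.74 for haemoglobin, -0.90 for red cell membrane, -0.44 for haem synthesis and 0.58 for early B-lineage genes.

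**Figure D5:**
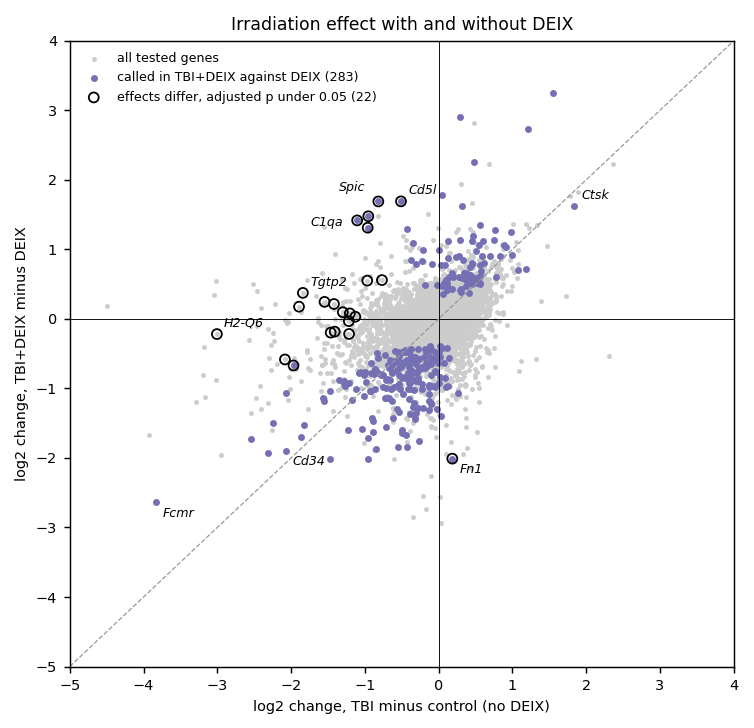
Each point is a tested gene, with its log2 difference for TBI minus control on the horizontal axis and for TBI+DEIX minus DEIX on the vertical axis. Circles mark the 22 genes whose irradiation effects differed between the 2 comparisons, with C1qa, C1qb, C1qc and Spic at the upper left and Fn1 at the bottom.

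The difference of the 2 irradiation effects was tested directly, as TBI+DEIX minus DEIX less TBI minus control. It was called for 22 genes (0.2%), 21 more positive with DEIX (0.191%) and 1 more negative (0.0091%), with 825 genes (7.5%) at an unadjusted p below 0.05 and a split of 23 and 5 on a TPM scale. Macrophage genes accounted for 5 of the 22. C1qb averaged 35.3 FPKM in control and 18.1 FPKM in TBI, and 12.2 in DEIX and 36.2 in TBI+DEIX, so the 2 effects had opposite signs and differed by 2.43 (SE 0.29, adjusted p = 0.0142). C1qa (control 38.2, TBI 17.5 FPKM) differed by 2.52 (adjusted p = 0.0142), C1qc by 2.27 (0.016), Spic (control 7.25, TBI 3.64 FPKM) by 2.51 (0.0338) and Cd5l by 2.201 (0.016). The TBI+DEIX means of C1qb, C1qa and Spic, 36.2, 33.3 and 7.35 FPKM, stood beside control means of 35.3, 38.2 and 7.25 FPKM, and the DEIX means of all 3 genes were the lowest of the 4 groups. Fn1 was the single gene more negative with DEIX, at -2.196 (SE 0.29, adjusted p = 0.0142), with means of 92.0 FPKM in control, 105 in TBI, 210 in DEIX and 51.1 in TBI+DEIX. H2-Q6, a non-classical MHC class I gene, differed by 2.79 (adjusted p = 0.0142), with means of 61.1, 6.87, 14.6 and 12.7 FPKM in control, TBI, DEIX and TBI+DEIX. It has near-identical neighbours among which reads can be divided, and its value is uncertain. The differences of C1qb and H2-Q6 were called in all 23 alternatives tried for each. Cd5l missed the threshold in 4 (largest adjusted p 0.0613), without control replicate 2, TBI replicate 2 or DEIX replicate 1 or 3. C1qa missed the threshold without control replicate 1 (adjusted p = 0.0633), control replicate 3 (0.0583) or TBI replicate 2 (0.0517), and Fn1 without control replicate 3 (0.0583) or TBI replicate 2 (0.0518). C1qc missed it in 6 alternatives (largest adjusted p 0.0737), without control replicate 1, 2 or 3, TBI replicate 2 or DEIX replicate 1 or 2, and Spic in 14 (0.147), among them all fits without a control, TBI or DEIX library.

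The called count for the difference of the effects was 331 (3.01%) without TBI+DEIX replicate 1, 13 without replicate 2 and 20 without replicate 3. It was 6, 11 and 5 without control replicate 1, 2 and 3, 13, 4 and 18 without TBI replicate 1, 2 and 3, and 8, 16 and 11 without DEIX replicate 1, 2 and 3. Of all tested genes 0.2% were called for the difference with all 12 libraries. By list, the members called for the difference included 5 of 18 island macrophage genes, 3 of 18 complement genes (the C1q genes again), 1 of 25 classical monocyte genes, 2 of 18 MHC class I genes and 1 of 16 interferon-inducible GTPases. In these and related lists more had an unadjusted p below 0.05: 21 of 37 in the type I interferon response, 13 of 16 GTPases, 9 of 18 MHC class I genes and 14 of 25 T and NK cell genes, beside 7.5% of all tested genes. The median differences of the effects in these 4 lists were 1.28, 1.37, 0.87 and 0.73. The stem, dendritic, megakaryocyte, mature B-cell, stromal and p53 lists had 0 members called and 0, 0, 4, 9, 1 and 1 at an unadjusted p below 0.05.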

How the data were processed

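Whole-marrow libraries (MGIEasy RNA Directional kit, 1 µg total RNA, per the labels' protocols) were deposited by the authors as 1 table of FPKM per gene for all 12 libraries. The submitters' processing notes name mm10, STAR 2.6 and Cufflinks 2.2.1. Their settings and the annotation are not given in the sources used here. Total counts are not in the table, so depth is given only in relative terms. Values were analysed as log2(FPKM + 1) in limma 3.58.1 (R 4.3.3): 1 mean per group over 4 groups of 3 libraries, 8 residual degrees of freedom, a mean-variance trend, Benjamini-Hochberg adjustment over all 10994 genes and a threshold of 0.05. Replicate numbers were not used for pairing. Identifiers and names come from GENCODE vM21, promoter windows from RefSeq.

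The comparison, its 44 gene lists and the naming rule were chosen with earlier results of these data known. Named were the 15 largest rises and 15 largest falls among called genes with non-overlapping libraries and at least 5 FPKM in the higher group, the called and, as needed, the 4 most abundant members of each list, and the 5 largest differences of effects in each direction. Vcam1 and Cdkn1a were named after their values were seen. Alternatives are listed with their effects in the closing section. Of the called genes, 1 is counted in its lists but not reported here.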

Additional observations from a re-analysis of the deposited data

Results flagged for a closer look

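The irradiation effect differed between mice with and without DEIX, by a direct test in the limma fit over 12 libraries, for 22 genes. The differences of the log2 effects (with DEIX minus without) were 2.79 for H2-Q6, 2.52 for C1qa, 2.51 for Spic, 2.43 for C1qb and 2.27 for C1qc, and -2.20 for Fn1. The C1q genes fell with irradiation in mice without DEIX (adjusted p = 0.0232 to 0.0397) and rose with it in DEIX-treated mice. Spic rose in DEIX-treated mice, and its lower mean in TBI than in control did not pass (adjusted p = 0.151). The part of RNA quality or of marrow cell makeup in these differences was not tested. With TBI+DEIX replicate 1 left out, 331 genes were called for the difference of the effects.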

How the results depend on the processing

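For TBI+DEIX against DEIX the count of called genes was 104 with a mean of at least 5 FPKM, 125 on a TPM scale, 0 in the 6 libraries alone, 1222 with array weights (whose estimate did not converge), 948 with gene-by-gene array weights, 87 in a fit of 5 libraries without TBI+DEIX replicate 1, and 50 to 927 when 1 library was left out. For the difference of the irradiation effects it was 11 with a pseudocount of 0.1, 7 with a mean of at least 5 FPKM, 37 with no filter on low values, 38 after quantile normalization, 1148 and 532 with the 2 kinds of array weights, and 4 to 331 when 1 library was left out. For TBI against control it was 134, 675 and 253 with the stricter filter, no filter and the TPM scale, 1417 in its 6 libraries, 7017 and 4218 with the array weights, and 153 to 1337 when 1 library was left out. With the replicate number as a block the 3 counts were 180, 20 and 378, and 171 of the 283 calls remained. Same-numbered TBI+DEIX and DEIX libraries had deviations correlated at -0.03, 0.07 and 0.25, so the numbers were not taken to pair the libraries. In the settings run, no called gene of the main comparison changed sign. The gene-by-gene weights, the 5-library fit and the fits that left out a library of a group outside the comparison were chosen after the data were seen. Array weights gave TBI+DEIX replicate 1 a weight of 0.0498. The unequal depth of the libraries, known only relative to each other, limits what can be said of genes near 1 FPKM. The causes of these shifts were not tested.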

Other observations

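Beyond the lists, 3 genes called in all 12 fits that left out 1 library were singled out after their values were seen. Cd93, a receptor of endothelium, progenitors and myeloid cells, was at 7.70, 8.55 and 6.20 FPKM in TBI+DEIX and 24.9, 20.0 and 22.6 FPKM in DEIX, with no overlap (limma difference -1.47, SE 0.13, adjusted p = 0.000773). Palld, an actin-bundling protein, was at 3.34, 2.71 and 3.44 FPKM against 1.04, 0.677 and 0.777 (difference 1.19, adjusted p = 0.00158). Dab2, an endocytic adaptor found in tissue macrophages, was at 3.76, 2.09 and 2.25 FPKM against 0.446, 0.386 and 0.451 (difference 1.35, adjusted p = 0.00335). For Cd93 and Palld, TBI+DEIX replicate 1 lay between the other irradiated libraries and apart from all DEIX libraries. For Dab2 it lay above the other irradiated libraries and further from the DEIX libraries than they did.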
